A study of Mus musculus with 22 samples.

Results

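The genes examined here are 10 members of the programme that the ileum switches on when microbes attach to its epithelium: the serum amyloid A genes Saa1, Saa2 and Saa3, the C-type lectins Reg3b and Reg3g, the oxidant-producing enzymes Duox2 and Nos2, the DUOX2 maturation factor Duoxa2, and the cytokines Il17a and Il22. They were matched by Ensembl identifier, 10 of the 54838 genes in the count table, and followed through 22 libraries of ileum from FVB/N mice, all female according to the methods of the study. GRWT mice carried the wild-type glucocorticoid receptor, and GRDim mice carried in every cell a point-mutant receptor that dimerises less efficiently. Both came from intercrosses of heterozygous mice, and whether the sequenced mice were littermates is not stated. A point mutation does not show in gene counts, so the genotype labels could not be checked. Each genotype drank normal water or water with 25 mM ZnSO4 for 7 days. The design text of the series also speaks of DEX, which no sample label names, and the groups here follow the labels. Zinc in this setting was studied as protection against systemic inflammation, and the comparisons ask what zinc did in each genotype and what the genotype did on each water.

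In the distal ileum, bacteria that adhere to the villi, of which segmented filamentous bacteria are the classical example, make epithelial cells secrete SAA proteins and make lymphocytes of the lamina propria release IL-17A and IL-22. IL-22 acts on its receptor on epithelial cells, through STAT3, and raises Reg3 lectins that kill or hold off bacteria. The same epithelium makes hydrogen peroxide with DUOX2, which needs DUOXA2 to leave the endoplasmic reticulum, and nitric oxide with the inducible synthase NOS2. These are background facts and were not measured here.

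Libraries carried the labels ileum (whole tissue) or IEC (epithelium scraped from the distal ileum after lysis buffer), but the smooth-muscle gene Myh11 did not follow those labels. Myh11 was at 298 to 463 CPM by library total in 12 libraries and at 3.2 to 20.5 CPM in the other 10. All other levels are CPM scaled with TMM factors. The 12 muscle-rich libraries, 3 per condition, held 7 labelled IEC and 5 labelled ileum, and the 10 muscle-poor ones held 3 labelled IEC and 7 labelled ileum, so that the markers go against the labels in both directions. All comparisons were therefore made within a muscle class. In GRDim mice the muscle-rich libraries on water were all labelled IEC and those on zinc all ileum, and the reverse held in the muscle-poor class, so there the water and the tissue label cannot be told apart. Muscle-poor GRWT groups held 2 libraries each, and the other 6 groups held 3 each. Library totals ran from 13149951 to 15620744 counts, and 3 counts, taken as the detection floor, corresponded to 0.177 to 0.319 TMM-scaled CPM.

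1 library stood apart. GRWT zinc ileum replicate 3 (muscle-poor) had 18.2 CPM of Fabp6, the ileal bile acid binding protein, against 3967 to 11564 CPM in all other libraries, and its 7 markers of the proximal small intestine summed to 19725 CPM against 242 to 525.9 CPM elsewhere. Its ileal markers therefore go against its label. It enters every fit through the shared estimate of the spread, and results that change without it are given both ways. The labels do not say whether the libraries of a group came from separate animals, so p-values measure the spread between these libraries. In bulk tissue, fewer cells of a type and less RNA per cell cannot be told apart. Where groups are said to be apart or not to overlap, the share of all genes that did so was not counted.

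The promoter stretches below belong to the gene pairs that the results turn on, each pair lying on 1 chromosome. They are the 200 bases before the RefSeq start site (GRCm38.p6, the build of the counts), written 5′ to 3′ on the strand of the gene. Capitals mark matches, on either strand, to TATAAA or TTGCNNAA, and a match is a description of letters, not of a bound factor. Saa1 is read from chr7:46742981-46743180 (minus strand), Saa2 from chr7:46751633-46751832 (plus), Reg3b from chr6:78370685-78370884 (plus), Reg3g from chr6:78468875-78469074 (minus), Duoxa2 from chr2:122298700-122298899 (plus) and Duox2 from chr2:122298228-122298427 (minus).
Saa1: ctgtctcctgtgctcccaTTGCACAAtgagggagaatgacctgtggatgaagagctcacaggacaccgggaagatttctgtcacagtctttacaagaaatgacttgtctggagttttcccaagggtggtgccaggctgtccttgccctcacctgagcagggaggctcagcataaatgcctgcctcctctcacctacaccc
Saa2: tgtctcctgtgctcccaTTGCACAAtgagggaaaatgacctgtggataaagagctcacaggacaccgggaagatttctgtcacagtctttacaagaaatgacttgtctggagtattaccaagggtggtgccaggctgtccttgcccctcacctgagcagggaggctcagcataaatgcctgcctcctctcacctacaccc
Reg3b: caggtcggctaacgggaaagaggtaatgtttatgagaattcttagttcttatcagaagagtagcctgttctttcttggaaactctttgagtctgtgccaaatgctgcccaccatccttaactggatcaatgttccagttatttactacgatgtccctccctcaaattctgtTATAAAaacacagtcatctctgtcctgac
Reg3g: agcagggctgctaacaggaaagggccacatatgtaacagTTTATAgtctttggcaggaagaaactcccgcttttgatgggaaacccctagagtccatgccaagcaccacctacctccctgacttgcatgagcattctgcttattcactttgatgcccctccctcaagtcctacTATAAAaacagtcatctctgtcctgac
Duoxa2: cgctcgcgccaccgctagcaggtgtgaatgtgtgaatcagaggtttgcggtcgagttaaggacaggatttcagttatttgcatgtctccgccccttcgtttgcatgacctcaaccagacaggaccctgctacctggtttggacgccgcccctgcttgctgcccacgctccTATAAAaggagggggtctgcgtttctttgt
Duox2: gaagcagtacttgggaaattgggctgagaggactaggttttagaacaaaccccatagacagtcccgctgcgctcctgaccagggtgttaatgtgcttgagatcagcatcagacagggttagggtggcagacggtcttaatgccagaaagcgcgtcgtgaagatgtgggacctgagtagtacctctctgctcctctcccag

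Saa1 and Saa2 are divergent neighbours whose stretches matched at 154 of 199 aligned bases without gaps (77.4%), both with TTGCNNAA near their upstream end. Reg3b and Reg3g matched at 114 of 198 bases (57.6%), both with TATAAA just before the start site. Duox2 and Duoxa2 lie head to head with RefSeq start sites 673 bases apart. Of their printed stretches only that of Duoxa2 has a TATAAA. By GENCODE bounds, however, Duox2 reaches 122298449, so its printed stretch lies inside the gene. The Reg3b stretch likewise lies inside Reg3b, which begins at 78370657, and the Saa2 stretch does so in part. Which start site these genes used here was not tested. Promoters were found for 9 of the 10 members. In 300-base windows (250 before to 50 after the start), TTGCNNAA occurred in 10.8% of 32851 promoters and TATAAA in 13.6%. The consensus of the interferon-stimulated response element (3.44% of promoters) was matched in Saa3. TTCCNGGAA, a STAT3-type motif (1.15%), the κB consensus (1.63%) and a relaxed glucocorticoid response element (0.475%) matched no window of the 9, which says only that these letters are not there.

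Levels per kilobase of exon placed Reg3b and Reg3g highest. In muscle-rich GRWT libraries on water the mean was 6322 CPM per kb for Reg3b, 733 for Reg3g, 11.3 for Nos2, 4.69 for Duox2, 1.76 for Duoxa2 and 1.19 for Saa1. Reg3b and Reg3g therefore stood far above these other members in wild-type mice on water. Copies of a gene that share sequence lose reads, because reads aligning to several places were not counted: 18.5% of the 75-base stretches of Saa1 and 17.8% of those of Saa2 also occur in another gene, mainly each other, so levels of these genes are lower bounds. The figure for Duox2, shared mainly with Duox1, was 3.39%, and for Reg3b, Reg3g, Duoxa2, Nos2 and Il17a it was 0.

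**Figure D1:**
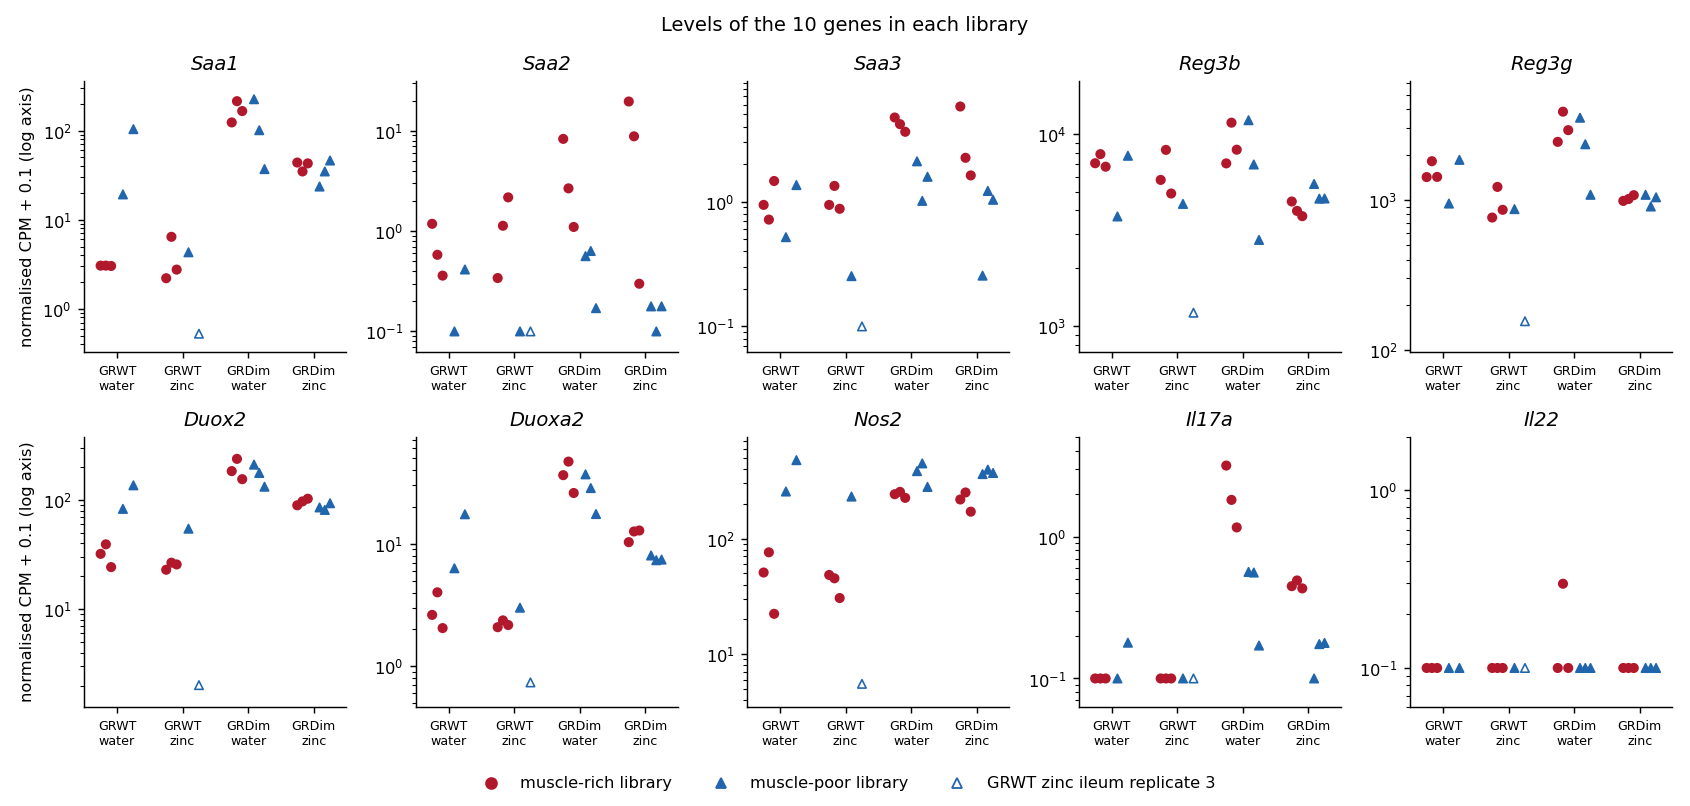
Level of each member in each library, in TMM-scaled CPM plus 0.1 on a log axis, by genotype, water and muscle class (points are libraries, and the open triangle is GRWT zinc ileum replicate 3). In the muscle-rich class the GRDim libraries on water sit above the GRWT libraries on water for Saa1 (123 to 214 against 2.92 to 2.95 CPM), Duox2, Duoxa2 and Nos2, while Reg3b overlaps.

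On water, in the muscle-rich class, 5 of 8 members were higher in GRDim than in GRWT mice and none was lower. Il22 did not pass the filter on low counts, and Il17a passed it only through the groups in which it was detected, so both are given by their counts. Saa1, Duoxa2, Duox2, Nos2 and Saa3 were called, at an adjusted p under 0.05 and a log2 fold change over 0.8 in either direction. Over all 16389 genes tested, 8.67% passed in this comparison. These GRDim libraries were all labelled IEC and the GRWT ones IEC in 2 of 3, and with the tissue label as a covariate in place of the muscle class only Duoxa2 of the 5 was called (2.44 ± 0.48, adjusted p = 0.0115). The median log2 fold change of the 8 members was 2.44, against -0.02 for all genes.

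IL-17A is the cytokine through which Th17 cells and type 3 lymphoid cells act on the epithelium. Il17a (chr1:20730905-20734496) had no count in any of the 6 muscle-rich GRWT libraries, on water or zinc. In muscle-rich GRDim libraries on water it stood at 3.06 CPM (IEC 4), 1.71 CPM (IEC 5) and 1.06 CPM (IEC 6), 91 counts in all. These groups did not overlap, and taking the floor of 3 counts per library for GRWT, Il17a was at least 9.44-fold higher in GRDim mice, a description with no test. Il22 (chr10:118204942-118210047), which signals to epithelial rather than blood cells, was detected in 1 library, muscle-rich GRDim water IEC 5, at 3 counts (0.198 CPM). It was too low to test. Shared stretches with its near copy Iltifb (29.9% of 75-base stretches) lower its count further.

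SAA proteins bind retinol and lipids and drive IL-17A production by T cells that are already committed to it. Saa1 (chr7:46740497-46742980) was at 2.95, 2.95 and 2.92 CPM in muscle-rich GRWT libraries on water (IEC 4, IEC 5, ileum 1) and at 123, 214 and 165 CPM in GRDim ones (IEC 4, IEC 5, IEC 6). Every GRDim library was far above every GRWT library, and the log2 fold change was 5.83 ± 0.76 (SE, adjusted p = 8.55e-05, n = 3 and 3, edgeR). Saa3 (chr7:46711998-46715700), the member of the family made in many tissues, was at 0.618 to 1.36 CPM in GRWT and at 3.53 to 4.63 CPM in GRDim libraries (log2 fold change 2.10 ± 0.52, adjusted p = 0.00858). Saa2 (chr7:46751790-46754313) was at 0.260 to 1.08 and at 1.00 to 8.21 CPM, ranges that touch, and did not pass (2.64 ± 1.14, adjusted p = 0.119).

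Saa2 moved from library to library with the liver gene Alb. In GRDim water IEC 4, IEC 5 and IEC 6, Saa2 was at 8.21, 2.57 and 1.00 CPM and Alb at 45.8, 13.8 and 2.41 CPM. In GRDim zinc ileum 1, 2 and 3, Saa2 was at 19.5, 8.72 and 0.199 CPM and Alb at 142, 61.1 and 1.66 CPM. Both genes were highest in the same libraries, and Saa2 was at 0 to 0.534 CPM in the muscle-poor class, where Alb was at 0 to 0.851 CPM. Saa1 had no such order: it was at 43.7, 34.7 and 42.7 CPM in those GRDim zinc libraries, with Alb differing from 1.66 to 142 CPM among them. The part of liver RNA in the Saa2 values was not tested.

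**Figure D2:**
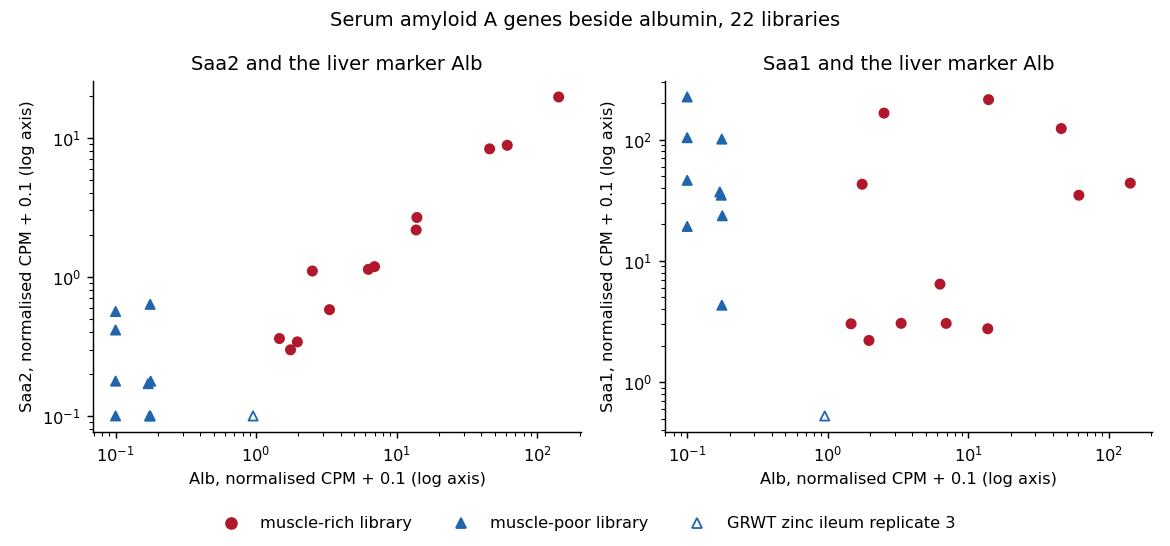
Saa2 and Saa1 against Alb in the same library, in TMM-scaled CPM plus 0.1 on log axes, with circles for muscle-rich and triangles for muscle-poor libraries (open for GRWT zinc ileum replicate 3). Saa2 is highest at 19.5 CPM in the library with the highest Alb at 142 CPM, while Saa1 shows no such order.

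REG3β and REG3γ are secreted lectins of enterocytes and Paneth cells with antibacterial activity. Reg3g (chr6:78466269-78468872) was at 1417, 1808 and 1421 CPM in muscle-rich GRWT libraries on water (IEC 4, IEC 5, ileum 1) and at 2432, 3864 and 2911 CPM in GRDim ones (IEC 4, IEC 5, IEC 6). The groups did not overlap, but the difference of 0.99 ± 0.47 on the log2 scale did not pass (adjusted p = 0.152, edgeR). It passed when GRWT zinc ileum replicate 3 was left out (0.99 ± 0.36, adjusted p = 0.0457, with 6 of the 8 members called and 10.4% of all genes). Reg3b (chr6:78370657-78373466) overlapped between genotypes, at 6758 to 7857 and at 7031 to 11459 CPM, and its difference of 0.31 ± 0.44 did not pass (adjusted p = 0.68).

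Of the oxidant enzymes, Duox2 (chr2:122279247-122298449) was at 32.0, 39.1 and 24.2 CPM in muscle-rich GRWT libraries on water and at 184, 238 and 155 CPM in GRDim ones. Its partner Duoxa2 (chr2:122298900-122302885) was at 2.53, 3.91 and 1.95 CPM against 36.2, 46.7 and 25.8 CPM. Neither gene overlapped between genotypes. The log2 fold changes were 2.60 ± 0.56 for Duox2 (adjusted p = 0.00404) and 3.70 ± 0.41 for Duoxa2 (adjusted p = 1.48e-05, edgeR, n = 3 and 3). Exons of Duoxa2 overlap Duoxa1 on the opposite strand, and the strand setting of the counting is not given in the sources used here. Duoxa1 had 442 counts over all 22 libraries. Nos2 (chr11:78920787-78960254) was at 50.8, 76.0 and 22.2 CPM in GRWT and at 242, 254 and 225 CPM in GRDim libraries, again apart (2.28 ± 0.72, adjusted p = 0.0353). Its call was lost when any 1 of 5 libraries was left out, with adjusted p from 0.0631 to 0.134: GRDim water IEC 4, 5 or 6, GRWT water IEC 4 or GRWT water ileum 1.

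Among muscle-poor libraries on water none of the 8 members passed between genotypes (edgeR, 1 at an unadjusted p under 0.05, and 0 by DESeq2), with 0.342% of all genes passing. The GRWT libraries there were unlike each other for several members. Saa1 was at 19.1 CPM (ileum 2) and 104 CPM (ileum 3) in GRWT mice, and at 225 (ileum 1), 101 and 36.9 CPM (the unnumbered ileum libraries) in GRDim mice. Duoxa2 was at 6.21 and 17.3 CPM in GRWT and at 36.7, 28.4 and 17.4 CPM in GRDim libraries, which did not overlap (1.22 ± 0.41, adjusted p = 0.243). Nos2 was at 256 and 478 against 384, 448 and 280 CPM, in which the genotypes overlap (0.02 ± 0.76, adjusted p = 1). The effect of genotype differed between the classes, by 4.85 ± 0.97 for Saa1 (adjusted p = 0.0194) and by 2.48 ± 0.56 for Duoxa2 (adjusted p = 0.0375), where 1.31% of all genes passed. Saa1 lost this call when any 1 of 5 libraries was left out (adjusted p from 0.0533 to 0.291) and Duoxa2 when any 1 of 10 was (0.0501 to 0.474). Without GRWT zinc ileum replicate 3, Duox2 (1.94 ± 0.33, adjusted p = 0.00304) and Nos2 (2.26 ± 0.51, adjusted p = 0.0176) passed as well, with 7.11% of all genes. The values without GRWT water ileum replicate 3 were 3.17 for Saa1 (adjusted p = 0.291) and 1.55 for Duoxa2 (adjusted p = 0.474).

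**Figure D3:**
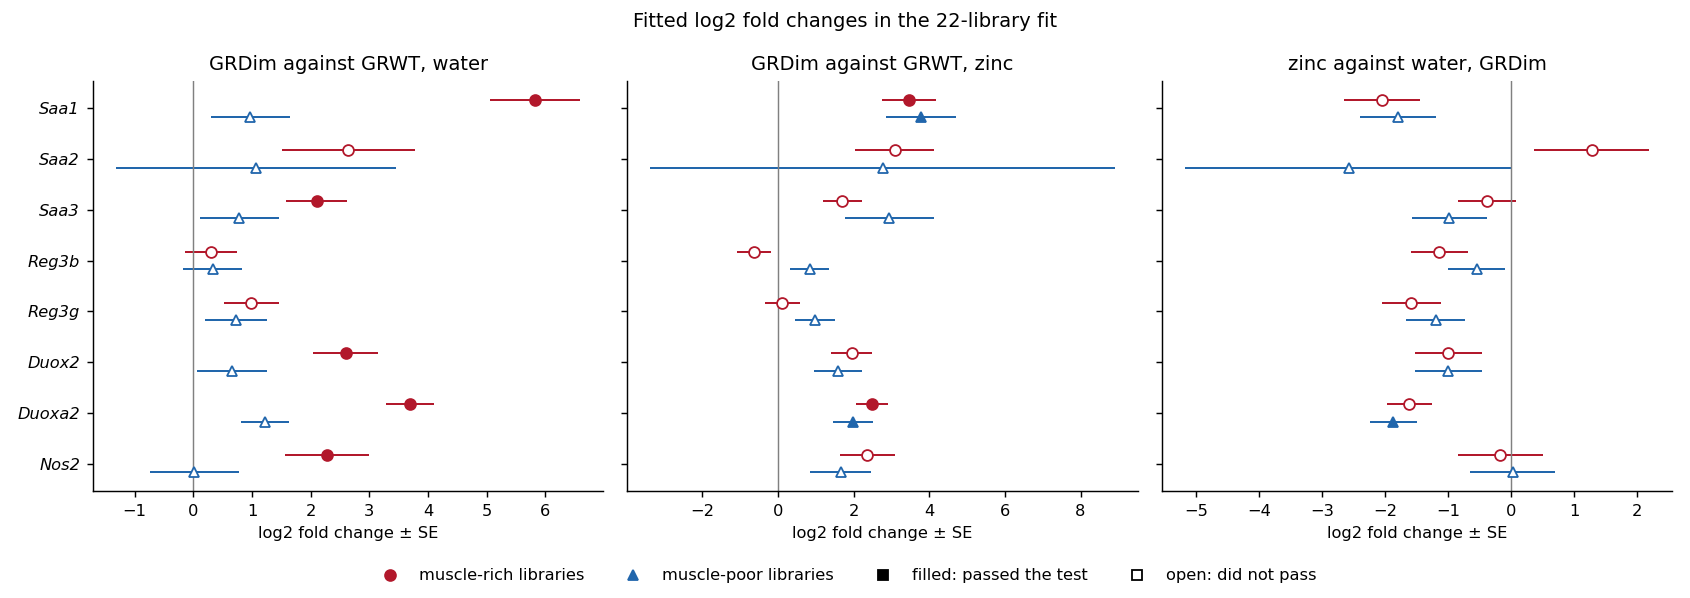
Log2 fold change with its standard error for each fitted member other than Il17a, with 1 panel each for genotype on water, genotype on zinc and zinc in GRDim mice (circles for muscle-rich and triangles for muscle-poor libraries, filled where the edgeR test was passed). On water Saa1 is at 5.83 in the muscle-rich class and at 0.97 in the muscle-poor class.

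Of 71 other genes of the pathway, from 5 lists, 21 were higher and 4 lower in muscle-rich GRDim than GRWT libraries on water, where 8.67% of all genes passed (757 higher and 664 lower). Among cytokines, 3 of 5 were higher, namely Ifng (3.87 ± 0.52), Tnf (1.70 ± 0.48) and Il12b. Of the 10 cytokine receptors none was called (edgeR, 1 at an unadjusted p under 0.05), with a median of -0.04. The IL-22 receptor chain Il22ra1 was lower at 66.7 to 71.7 CPM against 104 to 121 CPM, a significant difference (-0.73 ± 0.12) under the fold threshold. Il17ra (-0.04 ± 0.13) and Il17rc (0.25 ± 0.13) and the transcription factor Stat3 (0.30 ± 0.11, adjusted p = 0.066) did not pass. Of 21 genes of microbial sensing and signalling 7 were higher, with a median of 0.54 over the list. Zc3h12a, a ribonuclease that degrades inflammatory mRNAs, rose most in that list (2.50 ± 0.24).

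Of 14 other genes of oxidant production, 5 were higher in that comparison. The NADPH oxidase Nox1 rose from a mean of 3.36 to 34.5 CPM (log2 fold change 3.36 ± 0.41, adjusted p = 4e-05). Duox1, the paralogue of Duox2, rose from 0.915 to 4.95 CPM (2.43 ± 0.46), and Duoxa1 rose with it (2.48 ± 0.48). Among 21 other epithelial products 6 were higher and 4 lower. Ido1, the tryptophan-degrading enzyme induced by interferon γ, rose from 33.6 to 180 CPM (2.42 ± 0.15, adjusted p = 3.8e-08), and Fut2, which fucosylates the epithelial surface, from 2.41 to 11.7 CPM (2.28 ± 0.46). The 4 that fell were Ang4, an antimicrobial ribonuclease of Paneth cells (-1.64 ± 0.28), and the Reg genes Reg3a (-1.76 ± 0.35), Reg3d and Reg4 (-0.99 ± 0.33). Leaving out GRWT zinc ileum replicate 3 gave 24 higher and 7 lower among 72 genes, with 10.4% of all genes called. None of the 71 genes passed on water in the muscle-poor class (edgeR, 10 at an unadjusted p under 0.05), and without that library Tlr4 and Nod2 did, both higher in GRDim mice.

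**Figure D4:**
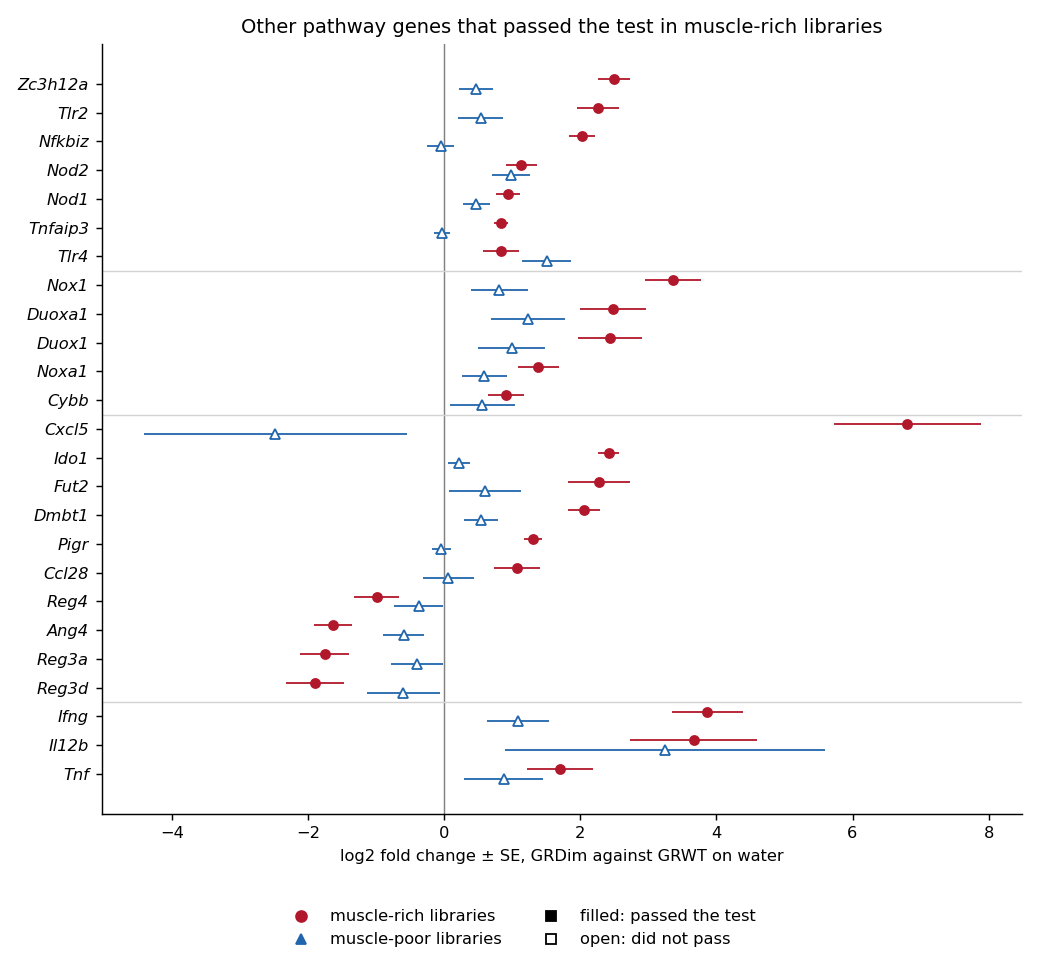
Log2 fold change with its standard error, GRDim against GRWT on water, of the 25 other pathway genes that passed the test in muscle-rich libraries (circles), beside the same genes in muscle-poor libraries (triangles), with filled symbols for those that passed and grey lines between lists. All muscle-poor symbols are open, and Reg3a, Reg3d, Reg4 and Ang4 lie below 0 in both classes.

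Cell type markers moved with the genotype in the muscle-rich libraries on water. The summed level of 12 markers of type 3 lymphoid and Th17 cells was 155 to 172 CPM in GRWT and 179 to 190 CPM in GRDim libraries (2 of the 12 called higher). For 10 macrophage and neutrophil markers it was 178 to 219 against 291 to 331 CPM, with the neutrophil genes Ly6g and S100a8 at or under the floor in every library. The 9 Paneth cell markers summed to 6703 to 8122 against 2324 to 2489.9 CPM, with 7 of 8 tested lower. The 10 epithelial markers summed to 19615 to 20484 against 16613 to 17922 CPM. Goblet cell markers summed to 12619 to 12639 against 8168 to 8830 CPM (1 called lower), ileal segment markers to 9159 to 10666 against 5531 to 6983 CPM, and smooth-muscle markers to 2464 to 2688 against 1865 to 2098 CPM. Proximal small-intestine markers summed to 366 to 391 against 242 to 281 CPM (1 called lower), and liver markers to 51.4 to 59.9 against 31.8 to 125 CPM (1 of 8 called higher). Their part in the members' differences was not tested.

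In GRDim mice zinc went with lower values of most members, although few passed. In the muscle-rich class 7 of 8 log2 fold changes were negative, with a median of -1.07, but none passed in the fit of all 22 libraries (edgeR, 4 at an unadjusted p under 0.05, 2 by DESeq2, 0.183% of all genes). Muscle-poor libraries again gave 7 of 8 negative, with a median of -1.10, and Duoxa2 fell (0.659% of all genes). Without GRWT zinc ileum replicate 3, which is no part of this comparison but adds to the estimated spread, 3 members were called lower in the muscle-rich class (Reg3g, Duox2 and Duoxa2, 1.14% of all genes) and 2 in the muscle-poor class (Duox2 and Duoxa2, 2.03%). Leaving out the other library of that group, GRWT zinc ileum replicate 2, takes the same pair out of the spread. It is therefore no separate check. The muscle-rich log2 fold changes were then -1.59 for Reg3g, -1.0 for Duox2 and -1.61 for Duoxa2.

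Duoxa2 was at 36.2, 46.7 and 25.8 CPM on water and at 10.2, 12.5 and 12.7 CPM on zinc in muscle-rich GRDim libraries, and at 36.7, 28.4 and 17.4 against 7.92, 7.24 and 7.32 CPM in muscle-poor ones. Zinc and water did not overlap in either class. The log2 fold change was -1.62 ± 0.36 (adjusted p = 0.0608) in the muscle-rich class and -1.87 ± 0.37 (adjusted p = 0.0196) in the muscle-poor class, and without GRWT zinc ileum replicate 3 it was -1.63 ± 0.33 (0.0115) and -1.88 ± 0.35 (0.00542). The muscle-poor call was lost without GRDim water ileum 1, the first of the unnumbered GRDim water libraries, GRDim zinc IEC 5 or GRDim zinc IEC 6, with adjusted p from 0.0671 to 0.105. It was also lost without a filter on low counts (Duoxa2 adjusted p = 0.0593), with the tissue label as a covariate (0.154) and with the class fitted alone (0.378). Duox2 went from 184, 238 and 155 to 89.2, 96.9 and 103 CPM in the muscle-rich class and from 210, 177 and 132 to 85.3, 80.9 and 93.2 CPM in the muscle-poor class, without overlap. Its log2 fold change was -1.0 ± 0.53 in both classes (adjusted p = 0.567 and 0.43), and without that library -1.01 ± 0.22 in both (0.0161 and 0.0125).

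Reg3g went from 2432, 3864 and 2911 to 983, 1012 and 1074 CPM in muscle-rich GRDim libraries (-1.58 ± 0.47, adjusted p = 0.176, and -1.60 ± 0.36, adjusted p = 0.0221, without GRWT zinc ileum replicate 3). In the muscle-poor class it went from 3521, 2344 and 1080 to 1079, 903 and 1039 CPM (-1.20 ± 0.47, adjusted p = 0.243). Zinc and water were apart in the first class and all but touched in the second. Reg3b was at 7031, 11459 and 8286 CPM on water and at 4452, 3978 and 3733 CPM on zinc in muscle-rich libraries, which did not overlap but did not pass (-1.14 ± 0.45, adjusted p = 0.369). With that class fitted alone the Reg3b difference passed. In muscle-poor libraries it was at 11802, 6938 and 2808 CPM on water and at 5493, 4605 and 4616 CPM on zinc, which overlap.

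Saa1 was at 123, 214 and 165 CPM on water and at 43.7, 34.7 and 42.7 CPM on zinc in muscle-rich GRDim libraries. The groups were apart and the difference did not pass (-2.05 ± 0.61, adjusted p = 0.172, and -2.06 ± 0.61, adjusted p = 0.0661, without GRWT zinc ileum replicate 3). With the muscle-rich class fitted alone the difference passed. In the muscle-poor class Saa1 was at 225, 101 and 36.9 CPM on water and at 23.4, 34.7 and 46.1 CPM on zinc, which overlap (-1.80 ± 0.61, adjusted p = 0.167). Il17a had 91 counts over 3 muscle-rich libraries on water and 16 on zinc (0.347, 0.390 and 0.331 CPM). The zinc libraries were all below the water libraries, with 5 or 6 counts each. Muscle-poor GRDim libraries held 13 counts of it on water and 2 on zinc.

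Nos2 values on zinc and water overlapped in GRDim mice in both classes. It was at 242, 254 and 225 CPM on water and at 218, 251 and 171 CPM on zinc in the muscle-rich class (-0.17 ± 0.68, adjusted p = 0.967), and at 384, 448 and 280 against 362, 395 and 370 CPM in the muscle-poor class (0.02 ± 0.68, adjusted p = 1). Whether zinc acted on Nos2 otherwise than on Duoxa2 was not tested. No gene of the marker lists passed for zinc in muscle-rich GRDim libraries, where macrophage and neutrophil markers summed to 291 to 331 CPM on water and 208 to 272 CPM on zinc, and epithelial markers to 16613 to 17922 and 19899 to 21334 CPM. Proximal small-intestine markers there summed to 242 to 281 CPM on water and 293 to 397 CPM on zinc, and ileal segment markers to 5531 to 6983 and 6204 to 10515 CPM. In muscle-poor ones 1 macrophage or neutrophil marker was called lower, with sums of 40.3 to 52.5 and 30.7 to 37.4 CPM. Their part in the zinc values was not tested. Of the 71 other pathway genes, Dmbt1, a secreted scavenger receptor, fell in the muscle-rich class (-1.35 ± 0.23), and Tlr4 (-2.02 ± 0.33) and Ido1 (-1.01 ± 0.15) fell in the muscle-poor class. Leaving out GRWT zinc ileum replicate 3 gave, over 72 genes, 5 lower in the muscle-rich class (Tnf, Tlr2, Dmbt1, Duox1 and Duoxa1) and 6 lower in the muscle-poor class.

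In GRWT mice, muscle-rich libraries gave no called member for zinc (edgeR, 0 at an unadjusted p under 0.05, 0 by DESeq2, 0.0732% of all genes). Reg3g was at 1417, 1808 and 1421 CPM on water and at 762, 1219 and 858 CPM on zinc, which did not overlap (-0.71 ± 0.46, adjusted p = 1). Saa1 was at 2.10, 6.33 and 2.65 CPM on zinc, around its water level. In the muscle-poor class, where only 2 libraries stood on each side, Saa1 (-4.60 ± 0.95, adjusted p = 0.0124) and Duoxa2 (-2.64 ± 0.54, adjusted p = 0.0121) fell, with 5.83% of all genes called. There Saa1 was at 4.21 (ileum 2) and 0.426 CPM (ileum 3) on zinc, and Duoxa2 at 2.91 and 0.638 CPM. Of the 71 other pathway genes 4 were higher and 5 lower there, against 0 and 2 of 72 without ileum 3. Without GRWT zinc ileum replicate 3 neither passed (Saa1 -3.91 ± 1.33, adjusted p = 0.26, and Duoxa2 -2.05, adjusted p = 0.225), with 0 members and 0.255% of all genes called. Without GRWT water ileum replicate 3 neither passed either (Saa1 -2.92, adjusted p = 0.158, and Duoxa2 -1.72, adjusted p = 0.161).

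The difference between genotypes in the zinc effect was itself tested, and 0 of 8 members passed in either class (edgeR, 1 at an unadjusted p under 0.05 in each, 0 by DESeq2), with 0.0061% and 0% of all genes. In the muscle-rich class it was -2.36 ± 1.02 for Saa1 (adjusted p = 0.791) and -1.21 ± 0.58 for Duoxa2 (adjusted p = 0.805). A response to zinc that differs between the genotypes is therefore not shown for these genes. The zinc effect also gave no member that differed between the muscle classes, in GRWT (edgeR, 3 at an unadjusted p under 0.05, 2 by DESeq2, 0.0183% of all genes) or in GRDim mice (0, 0 and 0%).

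On zinc the genotypes still differed. In the muscle-rich class Saa1 and Duoxa2 were higher in GRDim mice (2.34% of all genes). The Saa1 call was lost without GRWT zinc IEC replicate 4 (adjusted p = 0.0543). These GRDim libraries were all labelled ileum and the GRWT ones IEC in 2 of 3, and with the tissue label as a covariate in place of the muscle class neither Saa1 (adjusted p = 0.0793) nor Duoxa2 (0.0574) was called. Paneth cell markers summed to 1929 to 4446 CPM in these GRDim and 6019.5 to 8242 CPM in these GRWT libraries (6 of 8 called lower), and 1 of 8 liver markers was called higher. Goblet cell markers summed to 8756 to 10569 against 12033 to 13452 CPM, with 0 of 7 called. Their part was not tested. Saa1 was at 43.7, 34.7 and 42.7 CPM against 2.10, 6.33 and 2.65 CPM (3.46 ± 0.72, adjusted p = 0.00925), and Duoxa2 at 10.2, 12.5 and 12.7 against 1.98, 2.27 and 2.07 CPM (2.48 ± 0.42, adjusted p = 0.00204). Il17a, with 16 counts against 0, was at least 1.73-fold higher, again with no test. Duox2 at 89.2 to 103 against 22.9 to 26.5 CPM (1.94 ± 0.55, adjusted p = 0.0565) and Nos2 at 171 to 251 against 30.5 to 48.4 CPM (2.37 ± 0.72, adjusted p = 0.074) were also apart. Both passed without GRWT zinc ileum replicate 3 (Duox2 1.93 ± 0.24, adjusted p = 0.000112, and Nos2 2.36 ± 0.37, adjusted p = 0.000785), as did Saa3, making 5 of 8 members against 4.43% of all genes. Of the 71 other pathway genes 8 were higher and 2 lower in muscle-rich GRDim libraries on zinc (13 and 6 of 72 without that library). Ido1 (2.43 ± 0.16), Nox1 (1.90 ± 0.39), Zc3h12a (1.81 ± 0.23), Nfkbiz (1.74 ± 0.19) and Pigr, which carries IgA into the lumen (1.54 ± 0.13) were higher, and Ang4 (-1.28 ± 0.28) was lower. Ifng, at a lower level than these genes, was also higher (4.09 ± 0.67).

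The lectins were not called between the genotypes on zinc. Reg3g was at 983 to 1074 CPM in GRDim and at 762 to 1219 CPM in GRWT muscle-rich libraries (0.11 ± 0.46, adjusted p = 0.936). Reg3b was at 3733 to 4452 against 4899 to 8268 CPM, lower in GRDim mice without overlap (-0.64 ± 0.45, adjusted p = 0.487). In the muscle-poor class Saa1 (3.78 ± 0.92, adjusted p = 0.0121) and Duoxa2 (1.98 ± 0.52, adjusted p = 0.0169) were higher in GRDim mice, with 7.84% of all genes called. There GRDim libraries were all labelled IEC and GRWT ones all ileum, so genotype and tissue label cannot be told apart, and neither passed without GRWT zinc ileum replicate 3 (Saa1 3.08, adjusted p = 0.383, and Duoxa2 1.39, adjusted p = 0.423, with 0.154% of all genes). No member's genotype effect on zinc differed between the classes (edgeR, 1 at an unadjusted p under 0.05, 0 by DESeq2, 2.87% of all genes).

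Between the classes themselves, averaged over conditions, Saa3 (1.75 ± 0.38, adjusted p = 0.000505) was higher and Nos2 (-1.46 ± 0.36, adjusted p = 0.002) lower in muscle-rich libraries, among 24.9% of all genes. Saa2 passed the filter on low counts only through muscle-rich libraries, so here it is given by its counts. They ran from 0 to 7 in muscle-poor and from 3 to 281 in muscle-rich libraries. Nos2 was lower in the muscle-rich class in GRWT water, GRDim water and GRDim zinc libraries (means of 49.7 against 367, 240.3 against 371 and 213 against 376 CPM), but the averaged difference was -0.35 (adjusted p = 0.263) without GRWT zinc ileum replicate 2, which leaves replicate 3 (5.43 CPM) alone in its group. Markers called higher in muscle-rich libraries were 5 of 7 for macrophages and neutrophils, 6 of 6 for fibroblasts, 7 of 12 for type 3 lymphoid and Th17 cells and 5 of 8 for liver (1 lower), and 3 of 10 epithelial markers were lower. Their part was not tested. Nos2 was highest in a muscle-poor library, at 478 CPM in GRWT water ileum 3.

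Because paired genes shared a library, their ratio was taken within each library, a comparison chosen after the values were seen and therefore given as a description with no test. In muscle-rich GRDim libraries Duoxa2 counts were 0.167 to 0.197 per count of Duox2 on water and 0.114 to 0.129 on zinc. In muscle-poor ones they were 0.131 to 0.175 on water and 0.0786 to 0.0928 on zinc. Zinc and water were apart in both classes, and the ratio on zinc was 0.607 times that on water. On water the ratio in GRDim mice was 1.85 times that in GRWT mice, where it ran from 0.0750 to 0.127 over both classes. In GRWT mice the ratio on zinc was 1.16 times that on water, but 0.732 times without GRWT zinc ileum replicate 3. On zinc the ratio in GRDim mice was 0.971 times that in GRWT mice, but 1.53 times without GRWT zinc ileum replicate 3, whose ratio was 0.333.

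Reg3g counts per count of Reg3b were lower on zinc in both genotypes. On zinc the ratio was 0.667 times that on water in GRDim mice, with 0.337 to 0.351 on water and 0.221 to 0.288 on zinc in muscle-rich libraries. In GRWT mice it was 0.682 times, with 0.201 to 0.230 on water and 0.132 to 0.175 on zinc in the same class, and 0.757 times without GRWT zinc ileum replicate 3. GRDim exceeded GRWT 1.49 times on water and 1.46 times on zinc, the last being 1.31 times without that library. Water and zinc values did not overlap in the muscle-rich class of either genotype. The ratio does not show which of the lectins changed. The tissue label changes with water in GRDim mice here too, in opposite directions in the classes.

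**Figure D5:**
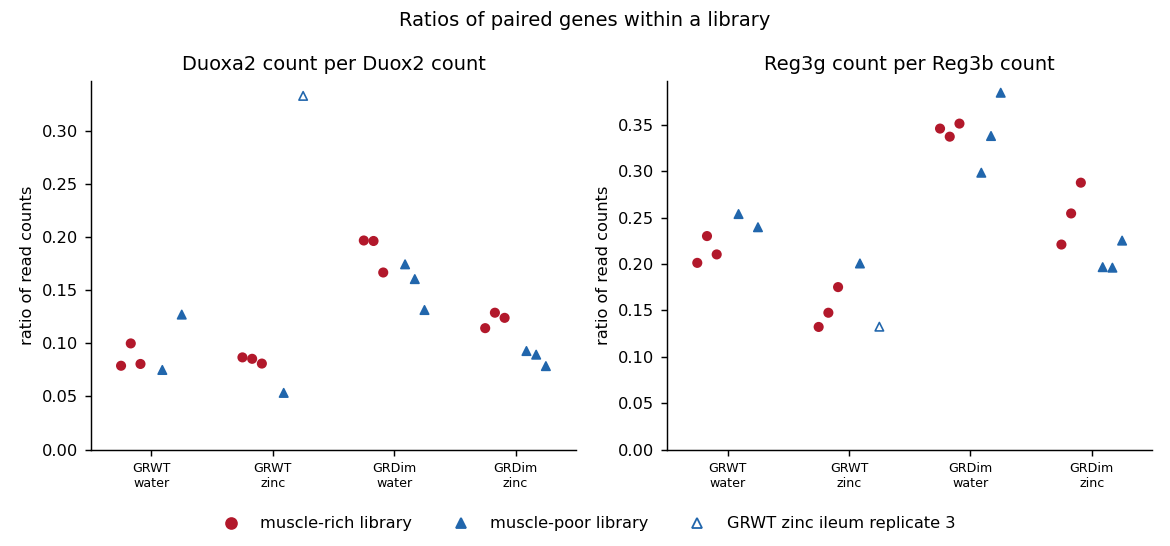
Duoxa2 counts per Duox2 count and Reg3g counts per Reg3b count in each library, by genotype, water and muscle class, with the open triangle marking GRWT zinc ileum replicate 3. In muscle-rich GRDim libraries Duoxa2 per Duox2 is 0.167 to 0.197 on water and 0.114 to 0.129 on zinc.

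Genes whose levels ran most alike were listed for Reg3g, Duox2 and Nos2 by Pearson r of log2(CPM + 0.5) over 22 libraries after subtracting class means, as a description of libraries that share depth, tissue and condition. For Duox2 they were Ccnd1, Noxa1, 1810065E05Rik, Cd177 and Top2a (r of 0.98 each), and without GRWT zinc ileum replicate 3 Duoxa2 came first (0.99), followed by Ccnd1, Mlkl, Irf8 and Cxcr6. For Nos2 they were Ccl28 (0.98), Top2a (0.97), Arhgap11a, Gtse1 and Cenpe, and without that library Nfkbiz (0.97), Barx2, Ccl28, Pigr and Irgm2. For Reg3g they were Tac1 (0.92), Poc1a, Emg1, Dock6 and Cd14, and without it Pax4, Tac1, Mfsd4a, Cd38 and Sec61a1. Reg3b was at rank 11 for Reg3g (0.90), and at rank 30 (0.81) without it.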

How the data were processed

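Ileal RNA of 22 samples was sequenced from stranded single-end libraries on a NextSeq instrument. The authors deposited 1 table of raw counts per Ensembl gene, after trimming with Trimmomatic, alignment to mm10 with HISAT2 2.0.4 and counting with featureCounts without multimapping reads, according to the submitters' processing notes and the methods of the study. The annotation release and the strand setting are not given in the sources used here. Totals of 13149951 to 15620744 counts set the precision. Floors cover counting error only.

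Gene names and exons came from GENCODE vM21 (54809 of 54838 identifiers). Libraries were put in a class by Myh11 over 100 CPM. A design with 8 groups (4 conditions in each class) was fitted to all 22 libraries with edgeR 4.0.16 (filterByExpr, TMM, robust quasi-likelihood test) in R 4.3.3, and p-values were Benjamini-Hochberg adjusted over 16389 genes. A gene was called at an adjusted p under 0.05 and an absolute log2 fold change over 0.8, and differences between classes at the adjusted p alone. The script was tested on simulated data. Il22 was detected in 1 library and given by its counts, since the exact permutation test set down for it on log2(CPM + 0.5) cannot separate groups with 1 value above 0.

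The members and the lists were chosen with earlier results of these data known. The text names all 10 members, up to 6 called genes of the pathway lists per comparison with the largest change and a mean of at least 1 CPM, further called genes where 5 or fewer are counted, and Il22ra1, Il17ra, Il17rc, Stat3, Duox1 and Saa4 whatever their result. Saa4 was at 2.36 CPM or less. The 5 genes most like Reg3g, Duox2 and Nos2 were taken by Pearson r. The ratios, and list counts without GRWT zinc ileum replicate 3, were added after the data were seen. Alternatives were DESeq2 1.42.0, other size factors and filters, class or tissue label as a covariate, 1 class alone, the replicate block and leaving out each library. Promoters came from RefSeq (GRCm38.p6). 1 item of a pathway list is not reported here by name.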

Additional observations from a re-analysis of the deposited data

Results flagged for a closer look

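Single libraries far from the others of their condition were looked for in 36 groups of 4 or more libraries, both muscle classes together, and 8 were found. Chance flags about 1 in 20 groups, and several of these groups mix the classes. The GRWT water group had Saa1 at 103.6 CPM in ileum 3, with the next library at 19.1 CPM, and Duoxa2 at 17.3 CPM in the same library, with the next at 6.21 CPM. The 1 count of Il17a in that group (0.0786 CPM) came from this library as well. Reg3b was lowest at 3721 CPM in GRWT water ileum 2, with the next at 6758 CPM. Nos2 was highest at 231.1 CPM in GRWT zinc ileum 2, with the next at 48.4 CPM. In GRDim mice, Saa2 was highest at 8.21 CPM in water IEC 4 (next 2.57 CPM) and Saa3 at 5.69 CPM in zinc ileum 1 (next 2.15 CPM), each in the library of its group with the most Alb. Il22 stood out at 0.198 CPM (3 counts) in GRDim water IEC 5.

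The effect of genotype on water differed between the muscle classes for Saa1, by 4.85 (adjusted p = 0.0194), and for Duoxa2, by 2.48 on the log2 scale (adjusted p = 0.0375, edgeR). The call was lost when any 1 of 5 libraries was left out for Saa1 and any 1 of 10 for Duoxa2.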

How the results depend on the processing

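The number of called members changed with the model. The numbers in this section, with the ranges from leaving out libraries, include Il17a, and those between the classes include Saa2. Both are given above by their counts. Without Il17a the fit of 8 groups called 5 in place of 6 for genotype on water in the muscle-rich class. For genotype on zinc there it called 2 in place of 3. Where no number without Il17a is given, a change can be a change in the call of Il17a alone. With muscle class as a covariate and 1 effect for both classes, 0 were called for zinc in muscle-poor GRWT libraries (2 in the fit of 8 groups), 3 for zinc in muscle-rich GRDim libraries (0) and 3 in muscle-poor ones (1), 5 for genotype on water in the muscle-poor class (0), and 6 for genotype on zinc in either class (3 and 2). With the tissue label in place of class these were 0, 0, 0, 2 and 0, with 2 for genotype on water in the muscle-rich class (6). A class fitted alone gave 6 for zinc in muscle-rich GRDim libraries, 6 for genotype on zinc in the muscle-rich class, and 0 for zinc in muscle-poor GRWT and GRDim libraries and for genotype on zinc there. DESeq2 gave 4 for zinc in muscle-poor GRWT, 2 for zinc in muscle-rich GRDim, 6 for genotype on zinc in the muscle-rich class (5 without Il17a) and 2 for the difference between classes in the zinc effect in GRWT mice (0). Without a filter, 0 were called for zinc in muscle-poor GRDim libraries and for the difference between classes in the genotype effect on water (2).

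Same-numbered libraries did not deviate together (25 pairs, r from -0.102 to 0.128). The block left out the 2 unnumbered libraries, so that 20 libraries and the block changed together. With the replicate block in these 20, calls were 0 for zinc in muscle-poor GRWT and GRDim, 0 for genotype on zinc in both classes, 1 between the classes (3) and 0 for the difference between classes on water.

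Leaving out each library in turn gave, for zinc, 0 to 6 calls in muscle-poor GRWT, 0 to 4 in muscle-rich GRDim and 0 to 2 in muscle-poor GRDim libraries. For genotype it gave 5 to 7 on water in the muscle-rich class, 0 in the muscle-poor class, and 1 to 6 and 0 to 6 on zinc. It gave 0 to 3 for the interaction in the muscle-poor class, 2 to 4 between the classes, and, for differences between classes, 0 to 6 (zinc in GRWT), 0 to 4 (genotype on water) and 0 to 4 (genotype on zinc). Without GRWT zinc ileum replicate 2 the class difference in the genotype effect on zinc was -3.55 for Duox2 (0.36 with it) and -3.75 for Nos2 (0.71), the lowest of values that reached 1.24 and 1.62 without GRWT zinc ileum replicate 3. Leaving out replicate 2 leaves that group with replicate 3 alone, which is assumed to vary like the other groups. Without GRWT zinc ileum replicate 3, Duoxa2 per Duox2 between genotypes on zinc was 0.62 on the log2 scale (-0.04 with it). For zinc against water in GRWT mice it was -0.45 (0.21 with it). The cause was not tested. Of 4034 alternative log2 fold changes of members, 3860 kept their side of the threshold, 80 lost a call and 92 gained one. A further 2 (Duox2 and Nos2, above) turned direction. Most of the 135 main values were not called, so most of the 3860 only stayed uncalled, and 130 of them changed sign. An alternative that set the classes by summed smooth-muscle markers gave the same classes, so its values could not change. Il17a and Il22 had few counts, and the part of depth in this was not tested.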
